A study of Mus musculus with 60 samples.

Results

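The 5 kainate receptor subunit genes of the mouse, Grik1 to Grik5, were followed in hand-dissected brain regions of Adgrl3 knockout and wild-type mice. They were taken by gene name from a table of raw read counts that holds 21950 protein-coding genes, and all 5 were present and passed the filter on low counts in every comparison. The knockout animals (KO, Adgrl3 -/-) and the wild-type animals (WT, Adgrl3 +/+) were 65 to 76 days old. Striatum, hippocampus and prefrontal cortex were each represented by 10 KO and 10 WT libraries, 60 in all. The product of Adgrl3, latrophilin-3, is a synaptic adhesion receptor that couples to G proteins. The labels do not name the altered part of the gene, the strain, the sex of the mice or the batch of a library. The question put by the design is whether the genotypes differ within a region and when regions are combined.

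Kainate receptors are tetrameric glutamate-gated cation channels. Grik1, Grik2 and Grik3 encode the subunits GluK1, GluK2 and GluK3, each of which can form a channel by itself. Grik4 and Grik5 encode the high-affinity subunits GluK4 and GluK5, which reach the cell surface as working channels when they assemble with one of the others. In the hippocampus these receptors are best known from the mossy fibre synapse between dentate granule cells and CA3 pyramidal cells, where they act on both sides of the synapse. In the striatum and the cortex they modulate the release of glutamate and GABA.

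All 5 subunits share the loop that lines the channel pore. Its coding sequence is shown because it holds the codon at which GluK1 and GluK2 transcripts are known to be edited. It also lets the genes be compared base by base. The stretches come from GENCODE M21 (GRCm38), from the longest coding transcript of each gene among those whose protein holds the residues MQQG in a single place. They are written 5′ to 3′ on the coding strand, with the glutamine codon of the glutamine/arginine site in capitals.
Grik1: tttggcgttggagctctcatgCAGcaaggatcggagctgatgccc
Grik2: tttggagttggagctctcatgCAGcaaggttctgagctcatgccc
Grik3: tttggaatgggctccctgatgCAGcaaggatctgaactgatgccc
Grik4: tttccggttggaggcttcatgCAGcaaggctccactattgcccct
Grik5: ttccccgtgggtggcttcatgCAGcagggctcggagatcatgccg
The capital codon lies at chr16:87940542-87940544 in exon 13 of Grik1, at chr10:49244329-49244331 in exon 12 of Grik2, at chr4:125691207-125691209 in exon 12 of Grik3, at chr9:42547623-42547625 in exon 14 of Grik4 and at chr7:25022497-25022499 in exon 15 of Grik5. Grik3 is on the plus strand and the others are on the minus strand. Of the 45 bases, Grik1 and Grik2 differed at 4, and each of them differed from Grik3 at 9. Grik4 differed from Grik5 at 14 bases and from Grik3 at 21. Grik5 differed from Grik1 at 13 and from Grik2 at 14, so over this stretch it was no closer to Grik4 than to these. The search required a glutamine at this site, and its unedited codon in the reference was CAG in all 5 genes. A table of reads per gene cannot show how many transcripts were edited.

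The counted features were whole genes from start to end, introns included, as the table's coordinates show. Grik1 spanned 394.4 kb (chr16:87895901-88290258), Grik2 693.9 kb (chr10:49094833-49788766), Grik3 223.5 kb (chr4:125490700-125714173), Grik4 426.4 kb (chr9:42518135-42944493) and Grik5 62.5 kb (chr7:25009849-25072346), all on GRCm38. Exon lengths were taken from GENCODE M21, where the coordinates of Grik1 differed from those of its counted feature. Annotated exons made up 8.27% of the Grik5 span and between 1.40% and 4.02% of the spans of the other 4. A level in CPM (reads scaled to a common library size, with TMM factors) can therefore be compared between groups for a single gene, but between genes only per length.

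Library totals lay between 38985577 and 51387833 reads. The lowest raw count of any subunit in any library was 272 reads, for Grik1, and the highest was 13156, for Grik5. Adgrl3 averaged 41.8 CPM in KO striatum against 163 CPM in WT striatum, 34.9 CPM in KO hippocampus against 125 CPM in WT hippocampus, and 35.3 CPM in KO prefrontal cortex against 149 CPM in WT prefrontal cortex, with no overlap of the genotypes in any region. Region markers matched the labels: the summed level of 8 striatal projection neuron genes was 4068 to 6365 CPM in the striatal libraries, 94.8 to 508 CPM in the hippocampal ones and 145 to 195 CPM in the prefrontal ones. The sum of 6 dentate granule neuron genes was 301 to 549 CPM in hippocampus, 180 to 235 CPM in striatum and 130 to 165 CPM in prefrontal cortex. That of 7 cortical excitatory neuron genes was 1959 to 2340 CPM in prefrontal cortex, 1463 to 1878 CPM in hippocampus and 373 to 1126 CPM in striatum. KO hippocampus replicate 2 (472 CPM) and WT hippocampus replicate 8 (508 CPM) stood above the other hippocampal libraries in these striatal genes. The summed level of 7 olfactory bulb neuron genes in prefrontal cortex ran from 7.43 to 63.3 CPM in KO libraries (median 10.7) and from 9.08 to 122.5 CPM in WT libraries (median 60.6). In these bulk samples a lower share of a cell type and less RNA per cell cannot be told apart.

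Loss of Adgrl3 was not accompanied by a called change of any kainate receptor subunit in any region. With edgeR's quasi-likelihood F test and a Benjamini-Hochberg adjusted p under 0.05 over all genes tested, 0 of 5 subunits were called in striatum, in hippocampus and in prefrontal cortex. The same test called 0.0514% of 15553 genes in striatum, 0.128% of 15581 in hippocampus and 0.117% of 15376 in prefrontal cortex, so a count of 0 of 5 lies near the background. At an unadjusted p under 0.05 the subunits numbered 0 in striatum, 0 in hippocampus and 1 in prefrontal cortex, namely Grik5. DESeq2 also called 0 of 5 in each region. The p-values set each genotype difference against the spread between the labelled replicates of a region.

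**Figure D1:**
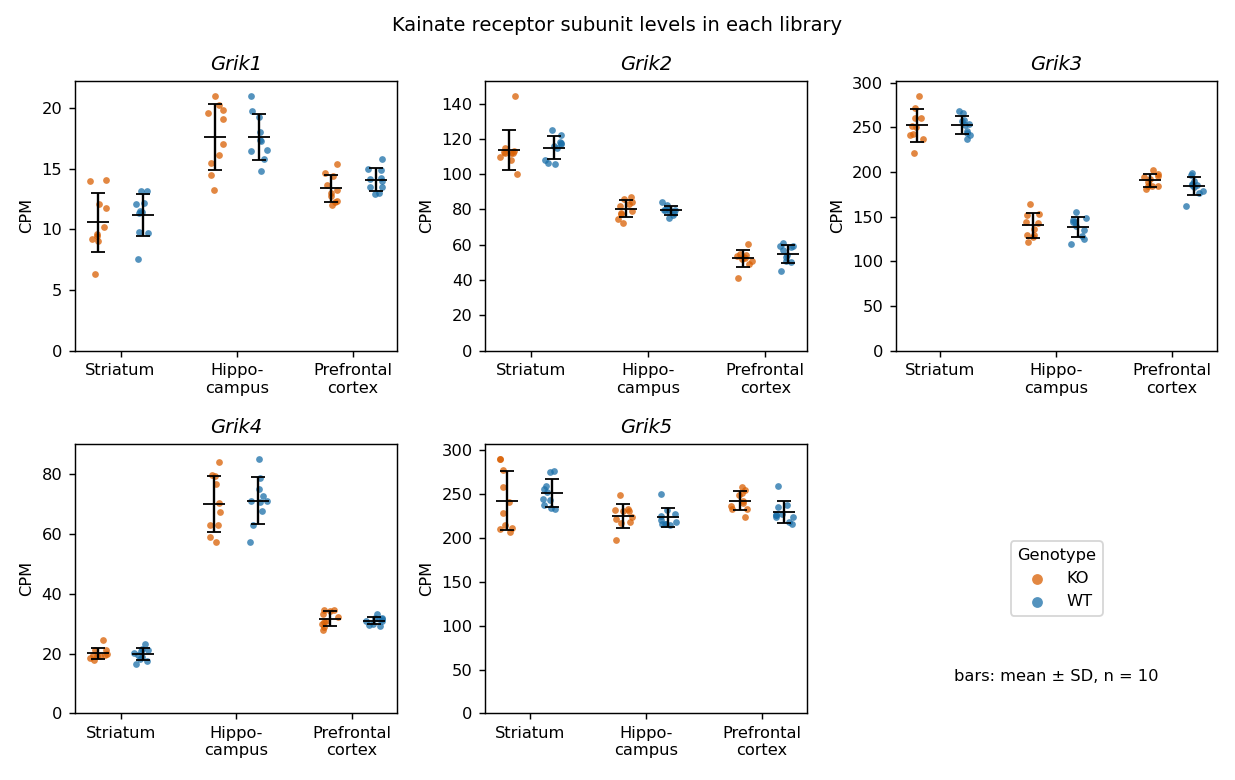
CPM after TMM scaling of each kainate receptor subunit (vertical axes, each starting at 0) in KO and WT libraries of striatum, hippocampus and prefrontal cortex (horizontal axis). Points are libraries and bars are the mean ± SD of 10; the genotypes overlap in every panel, while Grik2 and Grik4 separate the regions.

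Of the subunits that form channels by themselves, Grik1 was the scarcest by reads. In striatum it ran from 6.32 to 14.1 CPM in KO libraries (median 9.88) and from 7.56 to 13.2 CPM in WT libraries (median 11.5). In hippocampus it ran from 13.27 to 20.97 CPM in KO libraries (median 18.06) and from 14.79 to 20.96 CPM in WT libraries (median 17.3). In prefrontal cortex it ran from 12.0 to 15.4 CPM in KO libraries (median 13.1) and from 12.9 to 15.8 CPM in WT libraries (median 14.1). The genotypes overlapped in all 3 regions. The log2 difference of KO minus WT was -0.08 ± 0.12 (SE) in striatum (adjusted p = 0.887), -0.004 ± 0.082 in hippocampus (0.992) and -0.08 ± 0.05 in prefrontal cortex (0.542). The striatal interval was the widest of the 15 in the regions, from -0.33 to 0.17, which is 0.795-fold to 1.125-fold.

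Grik2 encodes GluK2, the subunit that carries most kainate currents at mossy fibre synapses. In striatum it ran from 100.3 to 144.1 CPM in KO libraries (median 112.1) and from 105.5 to 124.7 CPM in WT libraries (median 116.5). In hippocampus it ran from 72.6 to 86.8 CPM in KO libraries (median 80.5) and from 75.2 to 84.4 CPM in WT libraries (median 79.7). In prefrontal cortex it ran from 41.4 to 60.7 CPM in KO libraries (median 52.9) and from 45.2 to 61.1 CPM in WT libraries (median 55.5). The KO range enclosed the WT range in striatum and in hippocampus and overlapped it in prefrontal cortex. The differences were -0.01 ± 0.05 in striatum, 0.01 ± 0.03 in hippocampus and -0.08 ± 0.06 in prefrontal cortex, with adjusted p-values of 0.962, 0.945 and 0.644. In striatum and in prefrontal cortex 1 of 10 KO libraries lay above the WT mean, and in hippocampus 5 of 10 did.

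Grik3 encodes GluK3, which is known from presynaptic receptors of low glutamate affinity. In striatum it ran from 221.9 to 284.8 CPM in KO libraries (median 250.7) and from 237.2 to 268 CPM in WT libraries (median 253.5). In hippocampus it ran from 121.2 to 164.7 CPM in KO libraries (median 139.7) and from 119.9 to 155.7 CPM in WT libraries (median 141.5). In prefrontal cortex it ran from 180.8 to 202.8 CPM in KO libraries (median 190.3) and from 162.2 to 199.1 CPM in WT libraries (median 185.8). Again no region separated the genotypes. The differences were 0.001 ± 0.038 in striatum, 0.01 ± 0.06 in hippocampus and 0.04 ± 0.03 in prefrontal cortex, with adjusted p-values of 0.997, 0.972 and 0.702. The Grik3 feature encloses a ferritin light chain pseudogene of 552 bases on the same strand. Its parent gene Ftl1 averaged 211 CPM in KO striatum against 207 CPM in WT striatum, 176 CPM in both genotypes in hippocampus, and 193 CPM in KO against 185 CPM in WT prefrontal cortex. Ftl1 thus had the same order of regions as Grik3. Pearson's r of log2 CPM between Grik3 and Ftl1 was 0.763 over the 60 libraries. After the mean of each group was taken off it was 0.17. Over the 60 libraries the other subunits had values from -0.763 (Grik4) to 0.32 (Grik5). Any part of ferritin reads in the Grik3 counts, between genotypes or between regions, was not tested.

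Of the high-affinity subunits, Grik4 encodes GluK4, known for its enrichment in CA3 pyramidal neurons. In striatum it ran from 17.8 to 24.6 CPM in KO libraries (median 19.5) and from 16.5 to 23.3 CPM in WT libraries (median 19.9). In hippocampus it ran from 57.5 to 84.3 CPM in KO libraries (median 69.0) and from 57.2 to 85.2 CPM in WT libraries (median 71.0). In prefrontal cortex it ran from 28.0 to 34.6 CPM in KO libraries (median 31.6) and from 29.3 to 33.3 CPM in WT libraries (median 31.3). The KO and WT ranges nearly coincided in hippocampus. The differences were 0.02 ± 0.06 in striatum, -0.03 ± 0.07 in hippocampus and 0.02 ± 0.04 in prefrontal cortex, with adjusted p-values of 0.945, 0.948 and 0.889. The hippocampal spread ran beside that of 5 CA3 pyramidal neuron markers (Cpne4, Nectin3, Cdh24, Bok and Iyd). KO replicate 7 had the lowest level of both (57.5 CPM for Grik4 and 185.7 CPM for the markers) and KO replicate 3 the highest (84.3 and 382.6 CPM). Among WT hippocampi the lowest Grik4 was in replicate 7 (57.2 CPM) and the lowest marker sum in replicate 9 (207.9 CPM). The part of CA3 content in the Grik4 level was not tested.

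Grik5 encodes GluK5, the broadly expressed high-affinity partner. In striatum it ran from 206.2 to 289.8 CPM in KO libraries (median 234.1) and from 232.9 to 275.7 CPM in WT libraries (median 248). In hippocampus it ran from 197.2 to 249.2 CPM in KO libraries (median 227.1) and from 214.5 to 249.9 CPM in WT libraries (median 219.3). In prefrontal cortex it ran from 224.3 to 257.5 CPM in KO libraries (median 240.7) and from 216.3 to 259.1 CPM in WT libraries (median 225.5). The highest prefrontal library was WT replicate 10, and 9 of 10 KO libraries lay above the WT mean. The difference was -0.05 ± 0.06 in striatum (adjusted p = 0.873), 0.01 ± 0.03 in hippocampus (0.969) and 0.07 ± 0.03 in prefrontal cortex (unadjusted p = 0.0432, adjusted p = 0.405). The prefrontal interval ran from 0.002 to 0.14, that is from 1.002-fold to 1.099-fold, and the result did not pass the correction. With the mean of 4 olfactory bulb genes as a covariate, the difference of Grik5 in prefrontal cortex was 0.07 with an adjusted p of 1, and without WT replicate 10 it was 0.09 with an adjusted p of 0.198. In prefrontal cortex 11.8% of all genes tested had an unadjusted p under 0.05.

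Over the 3 regions together, with region as a second term, 0 of 5 subunits were called, against 4.03% of 16121 genes. The log2 differences were -0.05 ± 0.05 for Grik1, -0.03 ± 0.03 for Grik2, 0.02 ± 0.02 for Grik3, 0.006 ± 0.035 for Grik4 and 0.01 ± 0.03 for Grik5, and the adjusted p-values lay between 0.625 and 0.948. The narrowest of these intervals, that of Grik3, ran from -0.03 to 0.07. This fit treats the libraries as separate samples, and with counts summed per equally numbered library 0 of 5 subunits and 27 genes in all were called. A test of the interaction of genotype and region, over both terms at once, called 0 of 5 subunits and 0.0248% of all genes, and the adjusted p was 1 for each subunit, with unadjusted p-values from 0.182 for Grik5 to 0.801 for Grik4. The median absolute log2 difference of the 5 subunits was 0.02 in striatum, 0.01 in hippocampus and 0.07 in prefrontal cortex, beside 0.05, 0.04 and 0.05 over all genes tested.

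**Figure D2:**
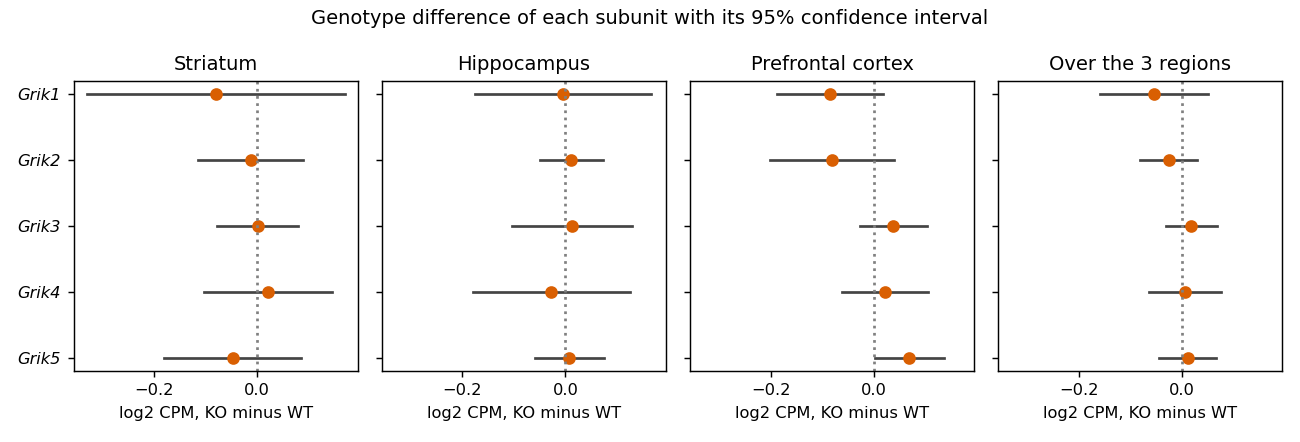
Log2 difference in CPM, KO minus WT (horizontal axis), of each subunit (rows) in each region and over the regions together. Points are estimates and lines are 95% confidence intervals; all intervals include 0 except that of Grik5 in prefrontal cortex, which runs from 0.002 to 0.14.

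For Grik1, Grik2, Grik3 and Grik4 every difference between regions was larger in size than any difference between genotypes within a region. Grik2 and Grik3 were highest in striatum, Grik4 and Grik1 were highest in hippocampus, and Grik5 was nearly level. The region differences were estimated within WT and, in other animals, within KO, and 15 of 15 had the same sign in both genotypes. Of these, Grik5 in striatum against prefrontal cortex was close to 0 in KO, and its sign there turned with RLE factors, without a filter, with the replicate block and with DESeq2. At an adjusted p under 0.05, striatum against hippocampus called 4 of 5 subunits in KO and 5 of 5 in WT, where 62.5% of all genes were called in KO and 66.6% in WT. Striatum against prefrontal cortex called 4 of 5 in KO and 5 of 5 in WT (70.9% and 71.5% of all genes), and hippocampus against prefrontal cortex called 4 of 5 in KO and 4 of 5 in WT (66.0% and 68.5%). With the replicate number as a block, Grik5 was also called in KO in striatum against hippocampus and in hippocampus against prefrontal cortex, which makes 5 of 5 in each. With an absolute log2 difference of at least 1 as a second condition, 1 of 5 was called in each contrast and each genotype. The share of all genes past both conditions was 10.4% in KO and 10.2% in WT for striatum against hippocampus, 12.6% and 11.6% for striatum against prefrontal cortex, and 9.74% and 10.1% for hippocampus against prefrontal cortex. The 4 or 5 of 5 called at the first condition therefore lie near the background, and so does the 1 of 5 at the second. With KO hippocampus replicate 2 and WT hippocampus replicate 8 left out, these counts were the same in all contrasts.

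Grik4 had the steepest regional pattern of the 5. Its 20 striatal libraries of both genotypes ran from 16.5 to 24.6 CPM, the 20 hippocampal ones from 57.2 to 85.2 CPM and the 20 prefrontal ones from 28.0 to 34.6 CPM, with no overlap between any of the regions. Striatum against hippocampus gave a log2 difference of -1.80 ± 0.07 in KO and -1.85 ± 0.06 in WT (adjusted p = 5.42e-21 and 1.68e-23, edgeR). Striatum was thus at 0.29 times the hippocampal level in KO and at 0.28 times in WT. Hippocampus against prefrontal cortex gave 1.14 ± 0.07 in KO and 1.20 ± 0.06 in WT, and striatum against prefrontal cortex -0.66 ± 0.07 in KO and -0.65 ± 0.06 in WT. The summed level of the 5 CA3 markers followed the same order of regions in the medians, with 108 CPM in KO and 112 CPM in WT striatum, 268 CPM in KO and 261 CPM in WT hippocampus, and 183 CPM in KO and 190 CPM in WT prefrontal cortex. Singly, Cpne4 and Bok had this order of medians in both genotypes. Nectin3 in WT was higher in prefrontal cortex (59.2 CPM) than in hippocampus (52.8 CPM). Cdh24 was higher in striatum than in prefrontal cortex (6.13 against 5.1 CPM in KO, 5.40 against 4.48 CPM in WT). So was Iyd in KO (0.34 against 0.22 CPM). The part of CA3 content in the regional order of Grik4 was not tested.

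Grik2 also separated all 3 regions without overlap, in another order. Its libraries ran from 100.3 to 144.1 CPM in striatum, from 72.6 to 86.8 CPM in hippocampus and from 41.4 to 61.1 CPM in prefrontal cortex. Striatum against prefrontal cortex gave 1.125 ± 0.054 in KO and 1.069 ± 0.042 in WT, which is 2.18-fold and 2.10-fold higher in striatum (adjusted p = 5.53e-18 and 1.23e-20, edgeR). Striatum against hippocampus gave 0.51 ± 0.05 in KO and 0.53 ± 0.04 in WT, and hippocampus against prefrontal cortex 0.62 ± 0.05 in KO and 0.54 ± 0.04 in WT. Hippocampus thus lay between the other regions.

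Grik3 was likewise highest in striatum but lowest in hippocampus. Its striatal libraries, at 221.9 to 284.8 CPM, lay above all hippocampal (119.9 to 164.7 CPM) and prefrontal ones (162.2 to 202.8 CPM), while the hippocampal and prefrontal ranges overlapped at their ends. Striatum against hippocampus gave 0.85 ± 0.05 in KO and 0.86 ± 0.04 in WT, a 1.80-fold and 1.82-fold difference. The difference of striatum against prefrontal cortex was 0.41 ± 0.05 in KO and 0.45 ± 0.04 in WT. Hippocampus against prefrontal cortex gave -0.44 ± 0.05 in KO and -0.41 ± 0.04 in WT, and all adjusted p-values of Grik3 were 3.77e-09 or lower.

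Grik1 was highest in hippocampus and lowest in striatum, with overlapping ranges. Striatum against hippocampus gave -0.73 ± 0.10 in KO and -0.66 ± 0.07 in WT (adjusted p = 2.8e-07 and 1.61e-09). For striatum against prefrontal cortex it was -0.34 ± 0.10 in KO and -0.33 ± 0.07 in WT, and hippocampus against prefrontal cortex 0.39 ± 0.10 in KO and 0.33 ± 0.07 in WT. Within striatum Grik1 was read beside the striatal marker sum. KO replicate 5 had the least Grik1 (6.32 CPM), the most Grik2 (144.1 CPM) and the highest marker sum (6365 CPM), and KO replicate 2 had the most Grik1 (14.1 CPM) and the lowest marker sum (4068 CPM). WT replicate 9 had the least Grik1 (7.56 CPM) beside the highest WT marker sum (5990 CPM). Its Grik2 was 118 CPM, while the most WT Grik2 was in replicate 4 (124.7 CPM, marker sum 5182 CPM). At the other end, WT replicates 1 and 8 had the most Grik1 (13.19 CPM each) with marker sums of 4321 and 4624 CPM, while the lowest WT marker sum was in replicate 7 (4109 CPM, with 12.05 CPM of Grik1). The part of striatal projection neuron content in these levels was not tested.

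Grik5 differed least between regions. Its libraries ran from 206.2 to 289.8 CPM in striatum, from 197.2 to 249.9 CPM in hippocampus and from 216.3 to 259.1 CPM in prefrontal cortex, so that all ranges overlapped. Striatum against hippocampus gave 0.11 ± 0.06 in KO (adjusted p = 0.0901) and 0.17 ± 0.04 in WT (0.000121). Striatum against prefrontal cortex gave 0.004 ± 0.057 in KO (0.953) and 0.13 ± 0.04 in WT (0.00123), and hippocampus against prefrontal cortex -0.11 ± 0.06 in KO (0.0989) and -0.03 ± 0.04 in WT (0.413). With the replicate number as a block, which pairs the prefrontal library with the equally numbered library of the other regions, the KO difference of hippocampus against prefrontal cortex was -0.11 with an adjusted p of 0.032. The same block (edgeR) gave 0.10 with an adjusted p of 0.0407 for striatum against hippocampus in KO. It gave -0.004 with 0.932 for striatum against prefrontal cortex in KO. Equally numbered KO libraries of striatum and hippocampus deviated together (correlation over 0.1) in 8 of 10 pairs. All 60 libraries in 1 fit gave adjusted p-values of 0.0397 for striatum against hippocampus and 0.0492 for hippocampus against prefrontal cortex in KO. Whether the regional difference of Grik5 itself differed between the genotypes is covered by the interaction test above, which did not call it (unadjusted p = 0.182, adjusted p = 1). With the replicate block the interaction of Grik5 had an unadjusted p of 0.0342 and an adjusted p of 0.694. The SD over KO striatal libraries was 33.7 CPM and over WT striatal libraries 15.6 CPM. The lowest KO striatal Grik5 was in replicate 10 (206.2 CPM), which also had the highest summed oligodendrocyte marker level of the KO striata (10230 CPM), and the highest was in replicate 1 (289.8 CPM), whose oligodendrocyte sum was 5907 CPM. The lowest oligodendrocyte sum of the KO striata was in replicate 6 (5300 CPM, with 258.4 CPM of Grik5). Among WT striata the lowest sum was in replicate 1 (4951 CPM), which had the highest WT striatal Grik5 (275.7 CPM). The highest WT sum was in replicate 5 (9680 CPM), which had 259.1 CPM of Grik5. The lowest WT striatal Grik5 was in replicate 4 (232.9 CPM), with a sum of 7638 CPM. The part of oligodendrocyte content in the Grik5 level was not tested.

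**Figure D3:**
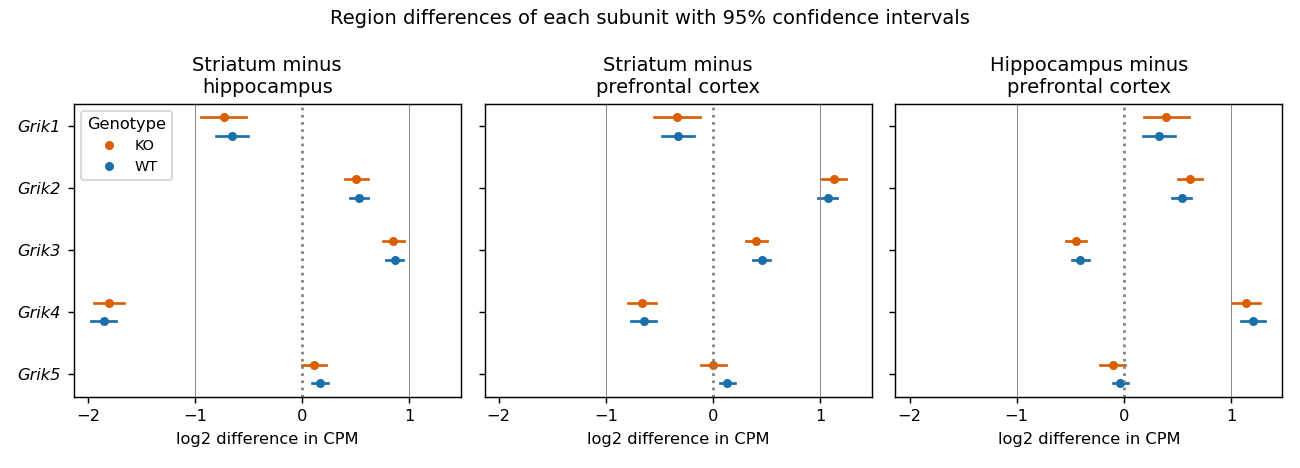
Log2 difference in CPM between regions (horizontal axis) of each subunit (rows), with KO above WT in each row. Points are estimates, lines are 95% confidence intervals and the thin vertical lines mark a log2 difference of 1 in either direction; Grik4 and Grik2 pass that line, and the intervals of the genotypes overlap in every row.

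The make-up of the family followed from these levels. Of the reads of the 5 genes in striatum, Grik3 took 39.5% ± 1.7 in KO and 38.9% ± 0.6 in WT (SD, n = 10 each), and Grik5 took 37.8% ± 2.2 in KO and 38.6% ± 1.5 in WT, so neither led beyond the spread. In hippocampus Grik5 led with 42.2% ± 1.8 in KO and 42.1% ± 1.5 in WT, followed by Grik3 with 26.3% ± 2.9 in KO and 26.2% ± 2.3 in WT. Grik5 also led in prefrontal cortex, with 45.7% ± 1.4 in KO and 44.6% ± 1.3 in WT. Grik4 took 13.1% ± 1.6 in KO and 13.4% ± 1.4 in WT hippocampus, but 3.1% ± 0.2 in KO and 3.0% ± 0.3 in WT striatum. Grik2 took 17.8% ± 1.4 in KO and 17.7% ± 1.3 in WT striatum, against 9.9% ± 0.9 in KO and 10.7% ± 0.9 in WT prefrontal cortex. Grik1 was the smallest share in each region, at 1.7% to 3.3% on average.

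Per length the ranking between genes changed. Per kilobase of counted feature, Grik5 took 73.8% in KO and 74.5% in WT striatum, 79.0% in both genotypes in hippocampus, and 78.9% in KO and 78.3% in WT prefrontal cortex. Per kilobase of annotated exon, Grik5 took 52.8% in KO and 53.7% in WT striatum, 54.7% in KO and 54.5% in WT hippocampus, and 59.0% in KO and 58.1% in WT prefrontal cortex. On the exon scale Grik3 came next, with 31.8% in KO and 31.1% in WT striatum and 19.7% in KO and 19.5% in WT hippocampus. In hippocampus Grik2 led Grik4 by reads (15.1% against 13.1% in KO, 15% against 13.4% in WT), whereas per kilobase of exon Grik4 led Grik2 (14.7% against 7.6% in KO, 15.1% against 7.6% in WT). Grik1 was lowest on the scales of reads and of feature length in every group, and on the exon scale as well. Neither length scale separates exonic from intronic reads, so the true transcript shares may lie outside both.

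**Figure D4:**
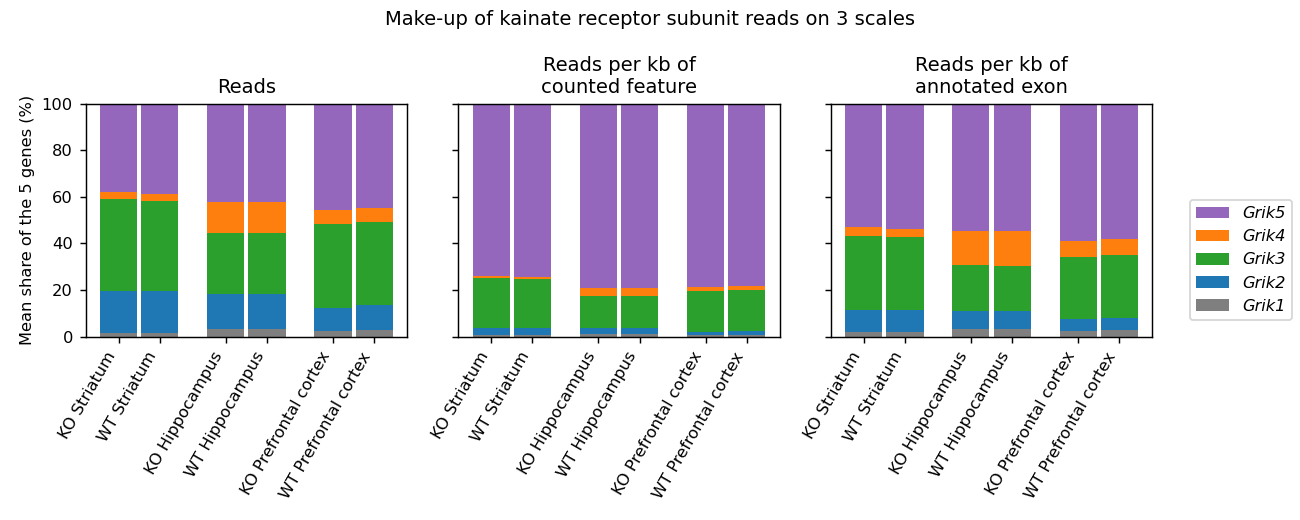
Mean share of each subunit in the summed level of the 5 genes (vertical axis, percent, n = 10 libraries a bar) in KO and WT libraries of each region, by reads, per kilobase of counted feature and per kilobase of annotated exon. Grik5 takes 73.8% to 79.0% per kilobase of feature and 52.8% to 59.0% per kilobase of exon, with the KO bar left of the WT bar in each region.

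The 5 genes summed to 639 ± 54 CPM in KO and 649 ± 23 CPM in WT striatum, 533 ± 14 CPM in KO and 531 ± 8 CPM in WT hippocampus, and 530 ± 13 CPM in KO and 514 ± 20 CPM in WT prefrontal cortex (SD, n = 10 each). Striatum was the highest of the regions in this sum. No test was made of a sum over the members.

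The genes around the receptor were read from lists of 22 genes, of which 21 were tested and Klhl17 was not analysed here. None of the 21 was called between KO and WT in striatum, hippocampus or prefrontal cortex. Neto1 and Neto2 encode the auxiliary subunits that slow the gating of kainate receptors. Neto2 in hippocampus differed by 0.13 ± 0.04 (unadjusted p = 0.00644, adjusted p = 0.425), from 55.1 ± 4.1 CPM in KO and 50.2 ± 3.5 CPM in WT. Of the scaffold and trafficking genes, Grip1, which encodes a PDZ protein that binds kainate receptors, had the smallest p in prefrontal cortex (-0.13 ± 0.05, adjusted p = 0.249) and in striatum (-0.09 ± 0.05, 0.709). Cdh2, the adhesion molecule N-cadherin, had the smallest in hippocampus (0.06 ± 0.02, 0.503). Senp1, which removes SUMO from proteins, differed by -0.11 ± 0.04 in hippocampus (0.508). Adarb1, which encodes the editing enzyme ADAR2, differed by 0.16 ± 0.14 in striatum, 0.04 ± 0.03 in hippocampus and 0.04 ± 0.05 in prefrontal cortex, and none of these passed.

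Between regions many of these 21 genes were called, as were most genes. Striatum against hippocampus called 7 higher and 8 lower in KO and 7 higher and 8 lower in WT. Striatum against prefrontal cortex called 8 higher and 7 lower in KO and 5 higher and 6 lower in WT, and hippocampus against prefrontal cortex 8 higher and 10 lower in each genotype. Neto2 was highest in striatum, at 169 ± 20 CPM in KO and 164 ± 15 CPM in WT, against 55.1 ± 4.1 CPM in KO and 50.2 ± 3.5 CPM in WT hippocampus. Its log2 difference of striatum against hippocampus was 1.62 ± 0.06 in KO and 1.71 ± 0.06 in WT. Neto1 was lower in prefrontal cortex, with 0.83 ± 0.08 in KO and 0.90 ± 0.05 in WT for striatum against prefrontal cortex. Striatum against hippocampus gave 0.05 ± 0.08 in KO and 0.04 ± 0.05 in WT for Neto1 and was not called.

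The secreted synaptic organisers that gather kainate receptors at mossy fibre synapses were regional as well. C1ql2, which is also on the list of dentate granule neuron markers, had 66.06 ± 16.01 CPM in KO and 70.3 ± 14.8 CPM in WT hippocampus, against 0.86 ± 0.29 CPM in KO and 0.95 ± 0.28 CPM in WT prefrontal cortex. C1ql3 was lowest in striatum, with 35.1 ± 14.6 CPM in KO and 42.6 ± 13.4 CPM in WT, against 176 ± 19 CPM in KO and 173 ± 15 CPM in WT prefrontal cortex. The scaffold gene Dlg1 (SAP97) was lower in hippocampus than in prefrontal cortex by a log2 difference of -0.89 ± 0.05 in KO and -0.84 ± 0.03 in WT. The editing gene Adarb1 was not called between hippocampus and prefrontal cortex (-0.06 ± 0.09 in KO and -0.05 ± 0.08 in WT), whereas Adarb2, whose product is not known to edit, was higher in hippocampus by 1.09 ± 0.15 in KO and 0.98 ± 0.12 in WT.

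**Figure D5:**
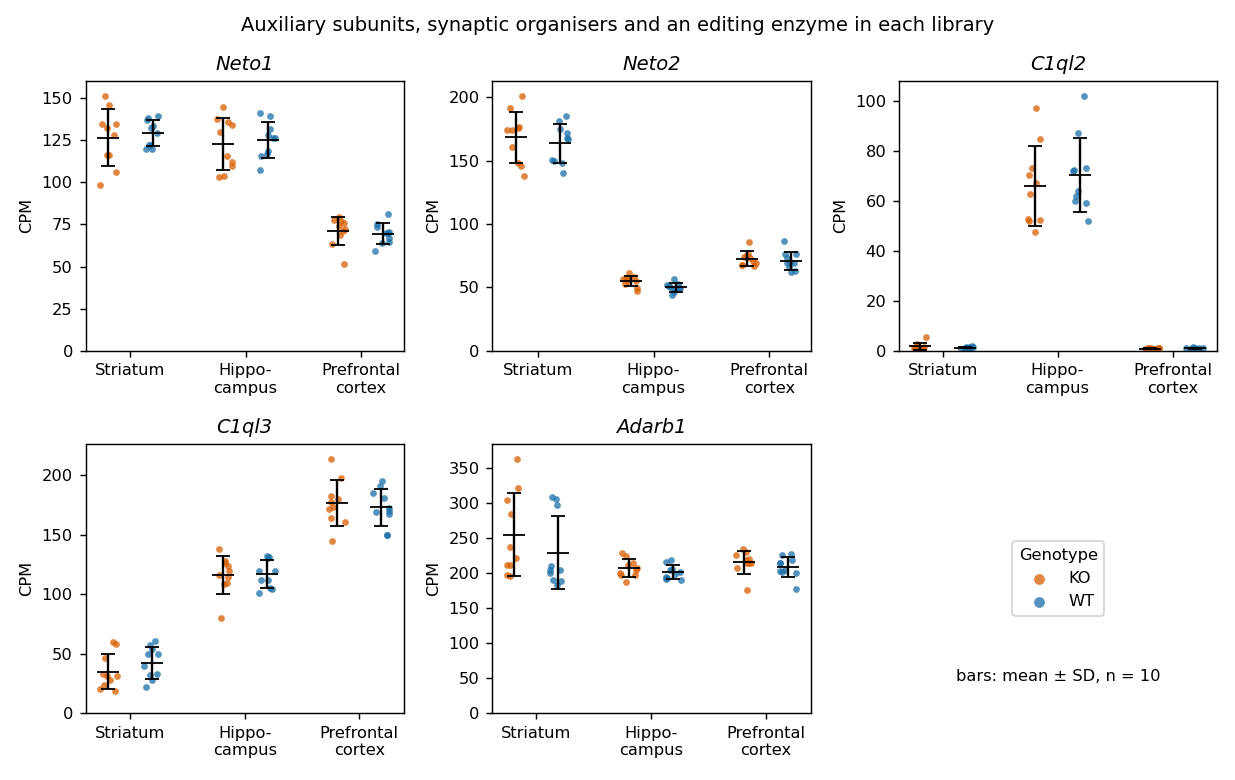
CPM after TMM scaling of Neto1, Neto2, C1ql2, C1ql3 and Adarb1 (vertical axes, each starting at 0) in KO and WT libraries of striatum, hippocampus and prefrontal cortex (horizontal axis). Points are libraries and bars are the mean ± SD of 10; Neto2 is highest in striatum, C1ql2 is at 5.65 CPM or lower outside hippocampus, and the genotypes overlap in every panel.

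For each subunit the 3 genes most like it were sought by Pearson's r of log2 CPM over the 60 libraries among 16116 other genes. These values describe the same libraries, share their scaling and mostly follow region, so the r after taking off the mean of each of the 6 groups is given beside each. Grik4 was closest to Kctd4 (0.985, 0.50 within groups), Cpne6 (0.983, 0.643) and Gabra5 (0.983, 0.622). Grik2 was closest to Thsd7a (0.982, 0.800), Foxo1 (0.982, 0.687) and Slk (0.981, 0.783). Grik3 was closest to Kcnt1 (0.982, 0.727), Arpp21 (0.972, 0.453) and Meis2 (0.971, 0.472). Grik1 was closest to Pnoc (0.878, 0.747), the gene of the neuropeptide nociceptin's precursor, to Mfap2 (0.876, 0.588) and to Plxna3 (0.875, 0.637). Grik5, the least regional subunit, had the lowest r over the 60 libraries, with Phyhip (0.772, 0.765), Trappc12 (0.730, 0.698) and Agap2 (0.704, 0.757). That r mostly follows region, so it cannot rank the likeness of Grik5 against that of the more regional subunits. Within groups the listed values of Grik5 were not the lowest, and all of them lay above those of Grik4.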

How the data were processed

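The authors deposited raw read counts per gene, as whole numbers, in a single table of 60 libraries. Brains of 12 mice a genotype were frozen before dissection, per the labels' protocols. GRCm38, STAR 2.5.2b, cutadapt 1.16, DESeq2 1.16.1, FastQC 0.11.4 and bedtools are named, with no role or order, per the submitters' processing notes. Per the file headers a feature is a whole gene with its introns. No source used here states how strand was handled.

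Counts were tested with edgeR 4.0.16 in R 4.3.3 (TMM scaling, filterByExpr, robust quasi-likelihood F test, Benjamini-Hochberg over all genes tested, threshold 0.05). KO and WT were compared per region on its 20 libraries and over all 60 with region as a term, and the regions within each genotype on 30 libraries. The edgeR comparison of KO and WT within a region was tested on simulated counts, with libraries drawn independently. The other fits were not simulated. CPM was computed here. The members, gene lists and tests were chosen with earlier results of these data known. The text names the 5 subunits, Adgrl3, up to 4 called genes of each list (or up to 2 of smallest p where none was called) and the 3 genes most like each subunit. Alternatives were RLE size factors, DESeq2 1.42.0, no filter, voom quality weights (limma 3.58.1), all 60 libraries in 1 fit, a replicate block, summed counts, an olfactory bulb covariate (Tbx21, Cdhr1, Doc2g and Eomes, as mean log2 CPM) and leaving out each library. Added after seeing the data were the exon length scale and leaving out the hippocampal library of highest striatal marker sum.

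Chi-square per degree of freedom between replicates of the same group was 5.57 to 93.3, so no library was entered more than once within a group. Libraries of different groups were not compared in this way. Within a genotype, equally numbered libraries deviated together in 10 of 10 pairs (every correlation over 0.1) between striatum and prefrontal cortex and between hippocampus and prefrontal cortex, and in 8 of 10 pairs between striatum and hippocampus. The numbers were taken to pair libraries of prefrontal cortex with those of the other regions, from the data and not from the labels. If they do, they also pair striatum with hippocampus.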

Additional observations from a re-analysis of the deposited data

Results flagged for a closer look

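A screen of 30 groups (5 subunits in 6 groups of 10 libraries) for a library set apart from the rest (Dixon's ratio at its 95% critical value) marked 4 groups. Chance alone marks about 1 group in 20.

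Grik2 in KO striatum replicate 5 stood at 144.1 CPM, with the nearest KO library at 114.7 CPM. The same library had the highest striatal projection neuron marker sum of the KO striata, at 6365 CPM. Among WT striata the highest sum was in replicate 9 (5990 CPM), with 118 CPM of Grik2. The most WT Grik2 was in replicate 4 (124.7 CPM), with a sum of 5182 CPM. The part of striatal projection neuron content in the Grik2 level was not tested. Without it the striatal difference of Grik2 was -0.06 (log2, KO minus WT), against -0.01 with it, and 0 of 5 subunits were called either way.

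Grik4 in KO striatum replicate 1 stood at 24.56 CPM, with the nearest KO library at 21.33 CPM. Without it the striatal difference of Grik4 was -0.01, against 0.02 with it.

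Grik5 in WT hippocampus replicate 10 stood at 249.9 CPM, with the nearest WT library at 231.5 CPM. Grik5 in WT prefrontal cortex replicate 10 stood at 259.1 CPM, with the nearest WT library at 237.6 CPM. Both libraries carry the same replicate number. Without the prefrontal one the prefrontal difference of Grik5 was 0.09, with an adjusted p of 0.198 (edgeR's quasi-likelihood test).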

How the results depend on the processing

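The count of subunits called between KO and WT was 0 in each region under each alternative and with each of the 60 libraries left out in turn, and 0 over the regions and for the interaction. Signs near 0 turned round with no call: Grik1 in hippocampus to 0.000115 under voom weights, Grik3 in striatum to -0.00175 with all 60 libraries in 1 fit and to -0.00154 with the replicate block, and Grik4 over the regions to -0.0197 with counts summed per equally numbered library. Striatum against prefrontal cortex for Grik5 in KO turned to -0.00575 with RLE factors, -0.00346 without a filter, -0.00433 with the replicate block and -0.00646 with DESeq2. The cause was not tested.

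With each library left out in turn, the hippocampal log2 difference ran from -0.0369 to 0.0355 for Grik1, -0.00117 to 0.0261 for Grik2, -0.0171 to 0.0354 for Grik3, -0.0629 to 0.00389 for Grik4 and -0.00793 to 0.0264 for Grik5. The striatal one ran from -0.0556 to 0.00703 for Grik2, -0.0173 to 0.0207 for Grik3, -0.0129 to 0.0516 for Grik4, -0.132 (without KO replicate 10) to -0.0166 (without KO replicate 5) for Grik1 and -0.0762 to -0.0230 for Grik5. The prefrontal one ran from -0.109 to -0.0651 for Grik1, -0.109 to -0.0477 for Grik2, 0.01997 to 0.05004 for Grik3, 0.00707 to 0.0406 for Grik4 and 0.0598 to 0.0902 for Grik5.

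The leading shares moved with the length scale by its construction. The share of Grik3 in WT striatum was 20.99% per kilobase of feature and 31.1% per kilobase of exon, that of Grik5 in WT hippocampus 79.0% and 54.5%, and in WT prefrontal cortex 78.3% and 58.1%.

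For Grik5 in KO, the replicate block brought striatum against hippocampus to an adjusted p of 0.0407 and hippocampus against prefrontal cortex to 0.032, and all 60 libraries in 1 fit brought them to 0.0397 and 0.0492. The block changed no other call of a subunit. Between KO and WT the numbers did not pair libraries (median correlations of -0.144 in hippocampus, -0.030 in prefrontal cortex and -0.089 in striatum).

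Counts of all genes called moved more. DESeq2 called 28 in striatum, 47 in hippocampus and 222 in prefrontal cortex, against 8, 20 and 18 with edgeR. The replicate block called 3, 5 and 10, and leaving out single libraries gave 5 to 15, 12 to 26 and 9 to 68. All 60 libraries in 1 fit called 22 in striatum and 208 in prefrontal cortex, voom weights 55 and the bulb covariate 6 in prefrontal cortex. Over the regions the block called 1054 and summed counts 27, against 650, and the interaction gave 17 with DESeq2, 1 with RLE factors, 1 without a filter and 0 with the block, against 4. At these depths the widest interval between KO and WT in a region was that of Grik1 in striatum, from -0.33 to 0.17.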
